A study of Mus musculus with 4 samples.

Results

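Sox1, Sox2, Sox3, Sox4, Sox5, Sox6, Sox8, Sox9, Sox10 and Sox11, the Sox transcription factor genes at work in neural progenitors and glia, were followed in female mouse neural stem cells with and without Smchd1. They were taken by symbol and were 10 of the 25965 entries of the count table. The series compared RNA from cultures with both copies of Smchd1, a chromatin protein of the inactive X chromosome, deleted with RNA from cultures that kept 1 conditional copy. The cell lines were set up from Smchd1 del/fl embryos at E14.5 of a C57BL/6 129/Castaneus mix. All 4 libraries analysed here carried at least 1 deleted Smchd1 allele, a maternal X of 129 origin with the Xist deltaA allele, which cannot silence, and a paternal X of Castaneus (Cast) origin with wild-type Xist. Both del/del libraries came from cells transduced with the retrovirus MSCV-Cre-puro, which carries Cre recombinase and a puromycin resistance cassette, put under puromycin 24 h later and collected 7 days after transduction. The 2 del/fl control libraries came from the untransduced remainder of the lines, so loss of Smchd1 cannot be told apart from transduction and puromycin selection. The design text speaks of 3 lines per genotype, of which 2, called A and B here, were analysed, each with 1 control and 1 deleted library.

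Sox proteins bind DNA through an HMG box, bend it, and act with partner factors such as POU proteins, so that the same Sox protein serves different genes in different cells. The SoxB1 factors Sox1, Sox2 and Sox3 keep neural progenitors undifferentiated, and the SoxC factors Sox4 and Sox11 act in neuronal differentiation. The SoxE factors Sox8, Sox9 and Sox10 specify glia, with Sox9 acting early and in astrocytes and Sox10 in oligodendrocytes and neural crest, while the SoxD factors Sox5 and Sox6 lack a transactivation domain and modulate the timing of gliogenesis beside SoxE.

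Members of a Sox subgroup share coding sequence, which bears on how short reads are divided between them. Among the 45 pairs of members, the longest identical stretch of each pair in GENCODE M21 transcripts (GRCm38, the mm10 assembly) had a median of 18 bases. The 3 longest are shown, 5′ to 3′ in the sense of the genes, because a read that lies inside one of them has the same letters in both genes. Each joins genes of the same subgroup and is coding in both.
Sox4 and Sox11, 48 bases of the only exon of each transcript, encoding part of the HMG box, at chr13:28952749-28952796 and chr12:27342166-27342213, both on the minus strand: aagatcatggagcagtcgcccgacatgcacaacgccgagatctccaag
Sox1 and Sox3, 45 bases of the only exon of each transcript, at chr8:12396727-12396771 on the plus strand and chrX:60892741-60892785 on the minus strand: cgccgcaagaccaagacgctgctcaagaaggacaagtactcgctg
Sox9 and Sox10, 44 bases in exon 1 of 3 of Sox9 and exon 3 of 5 of Sox10, at chr11:112782831-112782874 on the plus strand and chr15:79163430-79163473 on the minus strand: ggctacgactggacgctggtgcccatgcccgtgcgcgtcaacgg
The next longest was the 38 bases that Sox1 shares with Sox2. The read length, and what the authors' counting did with reads that match in several places, are not stated in the labels.

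The libraries held between 29873400 and 34018500 counts. Smchd1 itself, at chr17:71344489-71475343, was read in line A at 93.5 CPM (counts scaled to a common library size) in the control and 23.4 CPM in the deleted library, and in line B at 102 and 26.6 CPM. Its log2 difference was -1.96 (SE 0.07, adjusted p = 0.0194, edgeR quasi-likelihood test with line as a block), so the labels held in both lines. The deleted library of line A stood apart in interferon-stimulated genes: 8 of them summed to 361 CPM there, against 68.0 and 42.8 CPM in the controls and 56.9 CPM in the deleted library of line B. None of the 8 was called between genotypes (edgeR, median log2 difference 2.58), where 5.6% of all genes tested were. All 8 had an unadjusted p under 0.05 (edgeR), against 30.7% of all genes tested. Values of the Sox genes are therefore given for each line, which shows each difference with and without that library. The 9 neural stem cell markers summed to between 8031 and 9296 CPM in the 4 libraries, with members that went different ways. Slc1a3, a glutamate transporter of radial glia and astrocytes, rose from 1199 and 1383 CPM in the controls to 2405 and 2612 CPM in the deleted libraries (log2 difference 0.96, adjusted p = 0.0197, edgeR). It was the only one of the 9 called, where 5.6% of all genes tested were, and 5 had a negative difference. Markers of endothelium, microglia and mesenchyme summed to at most 3.44, 11.2 and 1.99 CPM, with 2 genes of each list at 0 in every library.

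All 10 Sox genes were read in every library and passed the filter on low counts. Their levels, compared between genes as CPM per kb of annotated exon, were led by Sox2 and Sox4. Sox2, the SoxB1 factor that marks neural stem cells, had the highest level at 140 ± 17.1 CPM per kb (mean ± SD, 4 libraries). Sox4 followed at 82.3 ± 4.31 CPM per kb. The lowest Sox2 library, at 123 CPM per kb, was above the highest Sox4 library, at 88.6 CPM per kb. Sox8 and Sox3 came next at 42.3 ± 3.05 and 40.9 ± 5.62 CPM per kb, and their ranges over the libraries overlapped. Sox9 (30.3 ± 2.90 CPM per kb) and Sox11 (25.1 ± 4.79 CPM per kb) overlapped each other too, as did Sox6 (10.1 ± 1.28 CPM per kb) and Sox1 (9.99 ± 2.76 CPM per kb). Below them stood Sox5 at 5.17 ± 1.30 CPM per kb, and Sox10 was lowest at 1.45 ± 1.17 CPM per kb. At every other step of this order, the lowest library of a gene was above the highest library of the next. The exon bases of a gene join the exons of all its annotated transcripts. They were 14376 for Sox5 and 14308 for Sox6, and the levels and places of these genes hold only for that length. The Sox11 level rests on 1878 exon bases of a counted span of 2013 bases, where the GENCODE gene spans 8311 bases, so part of its annotated transcript may have gone uncounted.

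**Figure D1:**
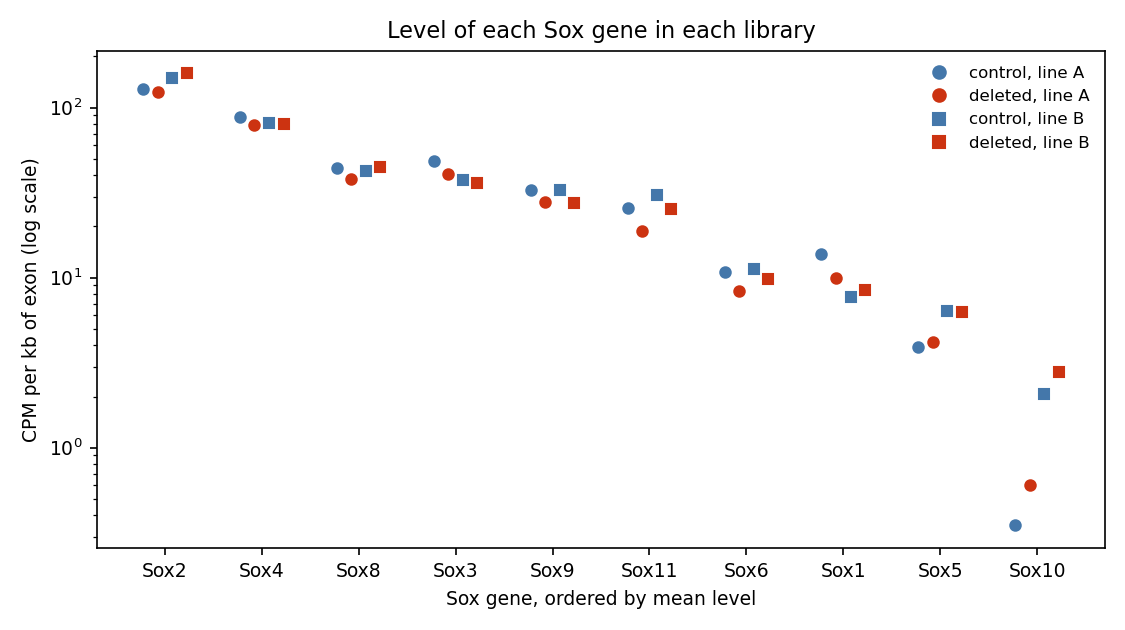
Level of each Sox gene in CPM per kb of annotated exon on a log axis, ordered by mean level, with 1 point per library (circles line A, squares line B; blue control, red deleted). Sox2 lies between 123 and 159 CPM per kb in every library, and Sox10 between 0.35 and 2.78, with both line B libraries above both line A libraries.

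The first comparison asked whether any Sox gene differed between deleted and control cells. None of the 10 passed edgeR's quasi-likelihood test at an adjusted p under 0.05, where 5.6% of the 14860 genes tested did (3.71% higher and 1.89% lower in deleted cells). None passed in DESeq2 either, which called 8.53% of genes. At an unadjusted p under 0.05, 4 of the 10 passed (Sox6, Sox9, Sox10 and Sox11), against 30.7% of all genes. The median log2 difference of the 10 was -0.12, with 7 negative and 3 positive, against 0.01 over all genes tested. The median size of the difference, sign aside, was 0.17 for the Sox genes and 0.19 over all genes. In 4 of them, Sox4, Sox6, Sox9 and Sox11, both deleted libraries were below both controls, which held for 22.8% of all genes. In none were both deleted libraries above both controls, which held for 22.9% of all genes. Within the lines, 5 were lower in the deleted library of both (36.4% of all genes), 1 was higher in both (38.1%), and 4 went in opposite directions. In these bulk cultures, fewer cells of a type and less RNA per cell cannot be told apart. The p-values set the size of the genotype difference against its variation between these 2 lines, with variance estimates shared across genes. They do not cover other lines.

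Among the SoxB1 genes, Sox2 gave the narrowest answer. Sox2 (chr3:34650005-34652461) had 264 CPM (line A) and 308 CPM (line B) in the controls, and 254 and 327 CPM in their deleted libraries; values below keep this order of lines. The groups overlapped, with 1 deleted library the lowest of the 4 and the other the highest. The deleted to control ratio was 1.01 with a 95% interval from 0.885 to 1.15 (adjusted p = 0.912, edgeR). Reads of Sox2ot, a long noncoding gene that overlaps Sox2 on the same strand, were few beside it, at 471 and 703 counts in the controls and 467 and 559 in the deleted libraries, against 7843 to 10507 for Sox2.

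Sox3 (chrX:60891370-60893430), the X-linked SoxB1 gene, had 101 and 77.8 CPM in the controls and 84.0 and 74.7 CPM in the deleted libraries, in the order of lines A and B. The deleted library was lower in each line, but the groups overlapped, because the line A deleted library was above the line B control. Its ratio was 0.895, with a 95% interval from 0.775 to 1.03 (adjusted p = 0.242, edgeR). Reads of Sox3 were not divided between the parental X chromosomes here. Sox1 (chr8:12395295-12400126), a marker of early neuroectoderm, had 67.0 and 37.1 CPM in the controls and 48.3 and 40.6 CPM in the deleted libraries. Its lines went opposite ways, with log2 differences of -0.47 in line A and 0.13 in line B. The ratio of 0.886 had the widest interval of the SoxB1 genes, from 0.67 to 1.17 (adjusted p = 0.485, edgeR). Sox1ot and the microRNA gene Gm25239 overlap Sox1 on the same strand. Neither is listed in the count table under these names, so their reads cannot be set apart.

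Of the 10 genes, the SoxC gene Sox11 had the lowest p. Sox11 (chr12:27340697-27342709) had 48.2 and 57.3 CPM in the controls and 35.4 and 47.3 CPM in the deleted libraries. The deleted library was the lower in each line, and the highest deleted value lay just below the lowest control value. The group means were 52.8 ± 6.41 CPM in controls and 41.3 ± 8.42 CPM in deleted cells (SD, n = 2 each). The ratio was 0.779, with a 95% interval from 0.674 to 0.901 that excludes 1, but its adjusted p was 0.068 (unadjusted 0.00715, edgeR). Without the filter on low counts the adjusted p was 0.046 at a log2 difference of -0.37, a call, and in DESeq2 it was 0.145, no call. Of 8 neuron markers 1 fell (Syt1) and none rose, against 1.89% lower and 3.71% higher among all genes tested. The 8 summed to 972 and 990 CPM in the controls and 992 and 856 CPM in the deleted libraries. Most of each sum was Map2, at 789 and 904 CPM in the controls and 917 and 813 CPM in the deleted libraries. The part of the 8 in the Sox11 value was not tested. Sox4 (chr13:28948919-28953713), the other SoxC gene, had 425 and 387 CPM in the controls and 379 and 387 CPM in the deleted libraries. Its deleted libraries were both the lower ones, but the difference in line B was under 1 CPM. Its ratio was 0.944, with a 95% interval from 0.822 to 1.08 (adjusted p = 0.501, edgeR). Gm26735, a long noncoding gene not listed in the count table, overlaps Sox4 on the opposite strand.

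The SoxD genes Sox6 and Sox5 differed in pattern. Sox6 (chr7:115471344-116038744) had 155 and 161 CPM in the controls and 120 and 141 CPM in the deleted libraries. Both controls were above both deleted libraries, with log2 differences of -0.37 in line A and -0.19 in line B. The fitted ratio was 0.823, with a 95% interval from 0.717 to 0.944 that excludes 1, and the adjusted p was 0.0904 (unadjusted 0.0152, edgeR). Sox5 (chr6:143828425-144781977) had 56.2 and 91.0 CPM in the controls and 60.1 and 89.8 CPM in the deleted libraries, in the order of lines A and B. The 2 libraries of a line were close to each other and far from those of the other line. Its deleted to control ratio was 1.03, with a 95% interval from 0.905 to 1.16 (adjusted p = 0.75, edgeR). The annotation places 5 antisense transcripts named Sox5os1 to Sox5os5 over Sox5, and Sox6os and Gm45025 over Sox6. Use of strand in the counting is not stated in the labels. Sox5it and Gm44068 overlap Sox5 on its own strand, where strand would not separate them. None of these is listed in the count table under these names.

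Of the SoxE genes, Sox9 had lower values in both deleted libraries, Sox10 had a higher value within each line and Sox8 differed in sign between the lines, none of them a call. Sox9 (chr11:112782224-112787760), the gliogenic and astrocytic factor, had 135 and 136 CPM in the controls and 116 and 114 CPM in the deleted libraries. The libraries of each group were nearly equal, with means of 136 ± 1.25 and 115 ± 1.55 CPM (SD, n = 2 each), and the groups did not overlap. The ratio was 0.848, with a 95% interval from 0.754 to 0.954 that excludes 1, and the adjusted p was 0.0915 (unadjusted 0.0158, edgeR). Beside this, 5 of 8 astrocyte markers (Gfap, Aqp4, S100b, Gja1 and Aldh1l1) rose and none fell, against 3.71% higher and 1.89% lower among all genes tested. Like the other lists, this one was chosen with earlier results of these data known, so the comparison of shares is not independent of them. The 8 summed to 568 and 573 CPM in the controls and 993 and 911 CPM in the deleted libraries, and the part of such cells in the Sox9 value was not tested.

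Sox8 (chr17:25565892-25570686), which overlaps in function with Sox9 and Sox10, had 138 and 132 CPM in the controls and 118 and 139 CPM in the deleted libraries. The lines went opposite ways, at log2 differences of -0.22 and 0.07. The ratio was 0.95, with a 95% interval from 0.804 to 1.12 (adjusted p = 0.625, edgeR). The antisense gene 2810468N07Rik, which overlaps Sox8, had 450 to 721 counts in the libraries against 3960 to 4508 for Sox8, and without strand the 2 cannot be fully separated. Sox10 (chr15:79154913-79164490) was the only Sox gene with a higher value in the deleted library of both lines: 1.04 and 6.16 CPM in the controls became 1.79 and 8.28 CPM. These are 31 and 210 counts against 60 and 265 counts, and the groups overlapped because the lines lay so far apart. The ratio was 1.47, with a 95% interval from 1.01 to 2.15, and the adjusted p was 0.156 (edgeR). Of 6 markers of neural crest and Schwann cells, which also express Sox10, 2 could be tested. Of these 1 rose (Ngfr), against 3.71% of all genes tested. The 6 summed to 18.8 and 28.5 CPM in the controls and 28.0 and 28.7 CPM in the deleted libraries. Most of each sum was Pmp22, at 17.9 and 27.8 CPM in the controls and 22.6 and 26.5 CPM in the deleted libraries. The part of the 6 in the Sox10 value was not tested.

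**Figure D2:**
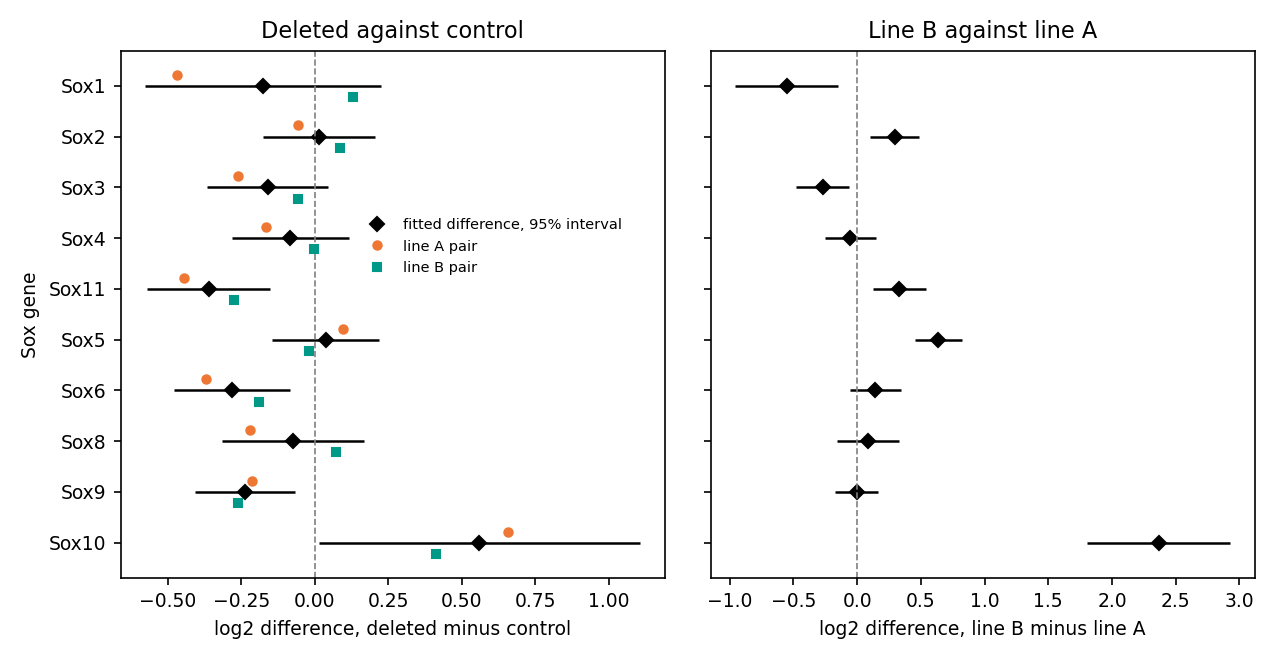
Left, log2 difference of deleted minus control for each Sox gene, with the fitted value and its 95% interval (black diamonds and bars) and the value of each line's pair of libraries (orange circles line A, teal squares line B). Right, the log2 difference of line B minus line A from the same edgeR fit with its 95% interval on a wider axis, where Sox10 stands out at 2.37.

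The lines differed from each other more than the genotypes did for 6 of the 10 Sox genes, against 49.6% of all genes. Sox10 and Sox5 passed the test of the line difference, 2 of 10, both higher in line B, against 10.1% of all genes in either direction. At the same time 6 of 10 had an unadjusted p under 0.05, against 30.4%. Sox10 was 5.16-fold higher in line B with genotype in the model, with a 95% interval from 3.49 to 7.6 (adjusted p = 0.0122, edgeR). Both line B libraries, at 210 and 265 counts, were far above the line A libraries at 31 and 60 counts. Sox5 was 1.56-fold higher in line B, with a 95% interval from 1.37 to 1.77 (adjusted p = 0.0159, edgeR), again with no overlap between the lines. Sox1 went the other way, at 0.682-fold in line B (95% interval 0.516 to 0.902), with an adjusted p of 0.0927 in edgeR and 0.0339 in DESeq2, which called 9.15% of genes between the lines. Sox2 had a line difference of log2 0.30 (SE 0.07, adjusted p = 0.073, edgeR) and Sox11 one of 0.33 (SE 0.08, adjusted p = 0.0697, edgeR), neither a call. Sox3 was at -0.27 (SE 0.08, adjusted p = 0.101, edgeR), so the SoxB1 genes did not share a direction between the lines. Sox4, Sox6, Sox8 and Sox9 lay between -0.05 and 0.14 (adjusted p from 0.277 to 0.972, edgeR). The lines also differed in Pdgfra, a receptor of oligodendrocyte precursors that was picked after its values were seen: it had 9.39 and 10.3 CPM in the control and deleted libraries of line A and 47.5 and 53.9 CPM in those of line B (adjusted p = 0.00308, edgeR). Of the 10 oligodendrocyte-lineage markers, 8 could be tested, and 1 of them (Pdgfra) was higher and 1 lower in line B, at a median line difference of log2 -0.05. The lower one was Myrf, a regulator of myelin genes, at 5.15 and 6.60 CPM in the control and deleted libraries of line A and 2.35 and 2.53 CPM in those of line B (listed as Gm98, log2 -1.26, adjusted p = 0.0304, edgeR). The 10 summed to 2946 and 2663 CPM in the control and deleted libraries of line A. In line B they summed to 2536 and 2558 CPM. Most of each sum was Olig1, at 1866 and 1749 CPM in line A and 1578 and 1619 CPM in line B. The part of the 10 in the Sox10 difference was not tested.

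Other genes of the Sox network were read from lists of further Sox genes, partners and known targets. The shares to set beside the counts of every list are those of all genes tested, 3.71% called higher and 1.89% lower. Of 10 further Sox genes, 4 could be tested, 1 fell and none rose, with a median log2 difference of -0.52; Sox14 and Sry were at 0 in every library. The gene that fell was Sox21, a SoxB2 factor that represses where SoxB1 factors activate. Sox21 had 114 and 136 CPM in the controls and 58.5 and 89.9 CPM in the deleted libraries. Both deleted libraries were below both controls, with a log2 difference of -0.78 (SE 0.10, adjusted p = 0.0335, edgeR). Without line in the model the adjusted p of Sox21 was 0.409 (edgeR), in a fit that called 0 genes of all. With line as a block it was 2.78e-06 in DESeq2.

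None of the 13 partner factors passed, and their median log2 difference was -0.11. The 2 with the highest counts were the oligodendrocyte-lineage factors Olig1 and Olig2. Olig1 had 1866 and 1578 CPM in the controls and 1749 and 1619 CPM in the deleted libraries, with overlap and a log2 difference of -0.03 (SE 0.08, adjusted p = 0.845, edgeR). Olig2 had 935 and 789 CPM against 732 and 726 CPM, with both deleted libraries the lower and a log2 difference of -0.24 (SE 0.09, adjusted p = 0.156, edgeR).

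None of 9 SoxB1 targets passed, at a median of -0.24. Nes, the intermediate filament nestin of neural stem cells, had 1663 and 1355 CPM in the controls and 1283 and 901 CPM in the deleted libraries, at a log2 difference of -0.48 (SE 0.09, adjusted p = 0.0536, edgeR). It passed without the low-count filter (adjusted p = 0.0212) and in DESeq2 (0.000274). Fabp7, a fatty acid binding protein of radial glia, had 1205 and 1761 CPM against 1396 and 2022 CPM, at 0.21 (SE 0.08, adjusted p = 0.157, edgeR). None of 3 SoxC targets passed, and the 2 with the highest counts went opposite ways. Tead2, a transcription factor of the Hippo pathway, had 125 and 108 CPM against 75.9 and 83.9 CPM, at -0.54 (SE 0.10, adjusted p = 0.0544, edgeR), and passed without the filter (0.0227) and in DESeq2 (0.00284). Dcx, doublecortin of migrating neurons, had 1.25 and 4.93 CPM against 3.85 and 8.31 CPM, at 1.12 (SE 0.27, adjusted p = 0.0756, edgeR), and passed without the filter (0.0408) but not in DESeq2 (0.0704).

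Of 10 glial targets of SoxE factors, 8 could be tested, 1 rose and none fell. All 8 had a positive difference, with a median of 0.38. The gene that rose was Mmd2, a membrane protein known as a Sox9 target in gliogenesis. Mmd2 had 11.5 and 21.1 CPM in the controls and 48.1 and 77.2 CPM in the deleted libraries, a log2 difference of 1.96 (SE 0.09, adjusted p = 0.0194, edgeR). Both deleted libraries were far above both controls. The same libraries had lower Sox9 values, not a call, and higher summed astrocyte markers. The part of either in the Mmd2 value was not tested. Without line in the model the adjusted p of Mmd2 was 0.401 (edgeR), in the fit that called 0 genes of all. With line as a block it was 4.22e-27 in DESeq2. Of 6 cartilage targets, 2 passed the filter and none was called: Col11a2, at 1.58 and 1.44 CPM in controls and 0.866 and 0.813 CPM in deleted cells, and Acan, at 0.438 and 0.558 CPM against 0.597 and 0.938 CPM. Their levels were near the floor of the data, and for these lists no test of a list as a whole was made.

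**Figure D3:**
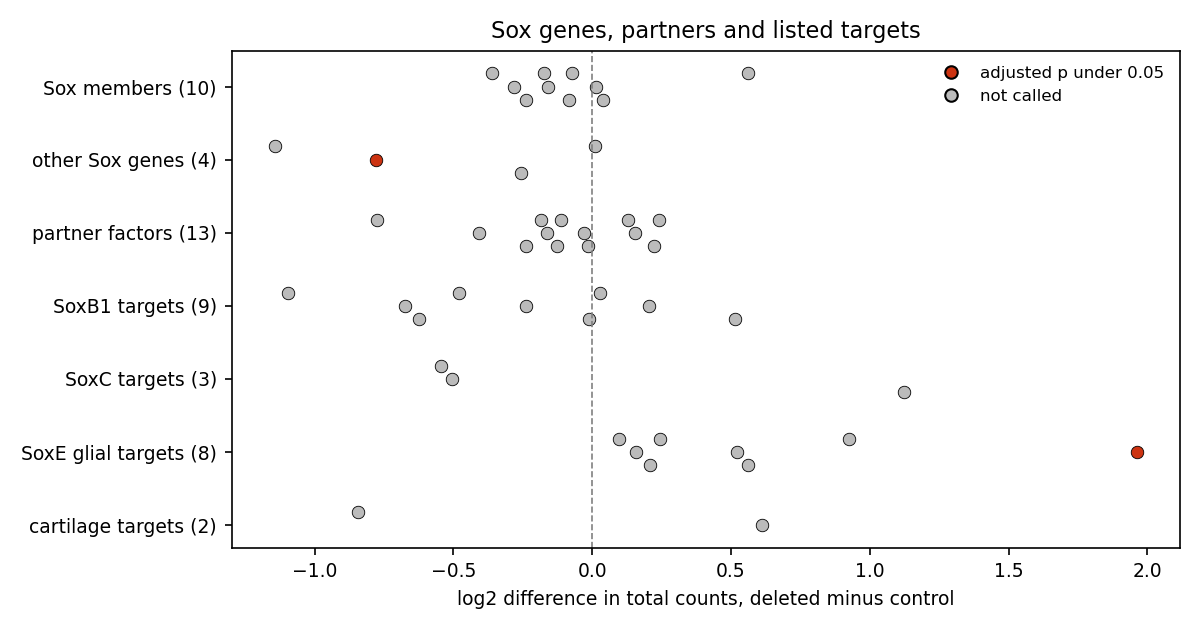
Log2 difference of deleted minus control in total counts, 1 point per tested gene, for the Sox genes and for each list of further Sox genes, partners and targets (number tested in brackets); red points passed an adjusted p under 0.05 in edgeR with line as a block. The only red points are Sox21 at -0.78 and Mmd2 at 1.96, and no point of the 10 Sox genes is red.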

How the data were processed

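Whole-number counts per gene from 2 control and 2 Smchd1-deleted neural stem cell libraries were used as the authors deposited them. The submitters' processing notes name the build mm10 and, among the tools, TopHat2 2.0.12, bcl2fastq and edgeR; they give no counting tool and do not say whether strand was used. Column names and labels gave the group. The table held 8 further columns, of reads split by parental genome, which the labels do not tie to single samples; they were not used here, and the planned test of the Cast to 129 ratio was not run. Column names alone number the lines (A and B here), and the labels say that each line was divided between the groups, which pairs the libraries. Deviations of same-numbered libraries from the group means correlated at r = 0.719 over 14860 genes, which are not independent.

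Genes were tested in R 4.3.3 with edgeR 4.0.16: TMM scaling, filterByExpr, a quasi-likelihood fit with line and genotype as terms (1 residual degree of freedom from 4 libraries) and Benjamini-Hochberg adjustment over all genes tested, with a threshold of 0.05. The line difference is the other term of that fit. DESeq2 1.42.0, other scalings, no filter, no line term and leaving out libraries or lines were alternatives. Log2 differences within a line use CPM with a pseudocount of 0.25. Exon bases came from GENCODE M21, clipped to the counted span. The test was checked on simulated counts. Every Sox gene is named; of each list, the called genes up to 6, or else the 2 with the highest counts. The Sox genes and lists were chosen with earlier results of these data known. Myrf and Map2 were matched as Gm98 and Mtap2.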

Additional observations from a re-analysis of the deposited data

Results flagged for a closer look

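Among the Sox genes and the named partners and targets, those with opposite signs of the genotype difference in the lines were singled out, and the difference between lines could not be tested with 1 library per genotype and line. Sox1 had a log2 difference of -0.47 in line A and 0.13 in line B, which are 0.599 apart. Sox8 had -0.22 and 0.07, which are 0.293 apart. Sox2 had -0.06 and 0.09, which are 0.143 apart, and Olig1 had -0.09 and 0.04, which are 0.13 apart. In Sox5 the value was the higher in line A, at 0.10 against -0.02, so line B minus line A was -0.116. Of all genes tested, 36.4% had a negative difference in each line and 38.1% a positive one in each. The rest did not share a sign, so opposite signs were not particular to the genes named here. Over all lists of further Sox genes, partners, targets, markers and interferon-stimulated genes, 17 of 74 tested genes had opposite signs, Olig1 among them. The widest apart was Hes5, a Notch effector chosen here after its values were seen, at -0.51 in line A and 1.34 in line B, which are 1.85 apart.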

How the results depend on the processing

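The counts of Sox genes called between genotypes, 0 higher and 0 lower, held in DESeq2, under both other scalings, without the replicate block and without each library; without the low-count filter 1 (Sox11) was called lower. Sox5 and Sox10 were called higher in line B in each of the 4 alternatives run, and DESeq2 called 1 (Sox1) lower. Over all genes, no filter gave 1131 higher and 671 lower between genotypes and 799 higher in line B (551, 281 and 521 with it), and DESeq2 gave 438 lower. Without the replicate block 0 genes passed in either direction (edgeR), while 1 Sox gene and 1737 genes of all had an unadjusted p under 0.05. Leaving out 1 library was run without the block, because 3 libraries with it leave no residual degree of freedom, and it called 0 genes in either direction; the lone library of a group is assumed to vary like the other group. Leaving out a library or a line gave log2 genotype differences of either sign for some genes. The ranges were -0.59 to 0.26 for Sox1, -0.19 to 0.19 for Sox2, -0.35 to 0.0243 for Sox3 and -0.31 to 0.41 for Sox5. They were -0.22 to 0.0722 for Sox8 and -1.03 to 2.27 for Sox10. For Olig1 the range was -0.15 to 0.0887, for Fabp7 -0.11 to 0.50 and for Bst2, an interferon-stimulated gene, -0.93 to 2.94. Sox4, Sox6, Sox9 and Sox11 kept their sign in each run. Leaving out 1 library without the block sets 1 line of a group against both lines of the other, so the line difference enters these values. Leaving out a whole line gave 0.41 and 0.66 for Sox10. The line difference of Sox9, near 0, became 0.001084 in DESeq2, 0.006607 with total scaling and 0.007663 with no filter; the cause was not tested. Scaling moved the median log2 difference of all genes from 0.01 to between 0.00703 and 0.015. The planned test of the Cast to 129 ratio was not run, so none of its alternatives was. Depth limits Sox10 most, at 31 to 265 counts per library.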
